A study of Hordeum vulgare with 12 samples.

Results

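The blf13 and nal1 lines of barley (Hordeum vulgare) were compared by asking, gene by gene, whether the change from wild type to mutant had the same size and direction in both. The measure was the interaction, that is the log2 fold change of blf13 against its wild type Bonus, less the log2 fold change of nal1 against its wild type Sebastian. Genes were kept where a response could have been seen in either background, meaning a mean of at least 1 CPM (read count scaled to library size) in Bonus and also in Sebastian. This left 17406 of the 81687 gene IDs in the files, and 77.6% of the 22437 genes that passed the low-count filter of the test. All 17406 passed that filter. The gene closest above the limit had 1.00 CPM in the lower of both wild types and the closest one below had 0.9998 CPM. Between 1 and 1.1 CPM lay 260 genes, and between 0.9 and 1 CPM lay 284.

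RNA was sequenced from the basal centimetre of the shoot, apex included and leaf 1 removed, of plants aged 7 days. There were 4 genotypes with 3 biological replicates each, and every replicate was a pool of 6 plants. The groups were blf13 in the Bonus background, Bonus, nal1 in the Sebastian background, and Sebastian, with no treatment. The title of the series describes the blf13 allele as gain-of-function, names its gene as the barley counterpart of rice NARROW LEAF1, and links it to greater leaf width. The labels give nal1 by this name and background only, and do not say how either line was made or how far it was backcrossed. Other sequence differences that a mutant line may carry relative to its cultivar cannot be told apart from the named mutation.

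NARROW LEAF1 is a plant-specific protein with a serine protease-like domain, first known from rice plants with narrow leaves. In rice it affects leaf width, vein number and auxin transport, largely through cell division in young leaf primordia. The base of a grass leaf is where its cells divide and start to elongate, so the sampled piece holds the zone in which leaf width is set. The comparison addresses which transcripts respond differently in the 2 mutant lines.

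Counts in genes ranged from 14831979 to 62995658 per library. The files give IDs without names or products, and 0 of 81687 IDs matched the reference table of barley genes. The tissue could not be checked against marker genes, nor the mutants against the level of the mutated gene, and genes are described by ID, level, direction and chromosome, which the ID carries. The second replicate of blf13 stood apart. Of its reads 29.8% were unmapped and 4.01% multimapping, against 10.2% to 17.8% and 1.40% to 2.18% in the other 11 libraries. Moves by more than 1.5 times without single libraries are given below for the totals, directions, response classes and the count of 2-fold or more. Counts by level, by chromosome and of larger sizes were not repeated in this way.

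The response to mutation differed between the lines in 1034 of the 17406 genes (5.94%), at an edgeR quasi-likelihood adjusted p under 0.05. Over all 22437 tested genes the share was 5.22%, so the share among genes measurable in both wild types was close to that of all tested genes, of which they are the larger part. The change was higher in blf13 for 334 genes, where the share over all tested genes was 1.83%, and higher in nal1 for 700, against 3.39%. The median size of the difference among the 1034 was 0.73 on the log2 scale, and it was 0.15 over all 17406. A difference of 2-fold or more was reached by 283 of them, 103 with the higher change in blf13 and 180 with the higher change in nal1. In the same order, a 4-fold difference was reached by 27 and 29 genes, and an 8-fold difference by 9 and 11. Over all 22437 tested genes, 420 (1.87%) were called with a difference of 2-fold or more. These include called genes under the level limit, 137 in all with a median size of 2.40, so many large differences lie outside the 283. As 2.40 is above 4-fold, the larger part of the 137 lay over 4-fold, in addition to the 27 and 29 genes above. The 4-fold and 8-fold classes were not counted over all tested genes. Since whole shoot bases were sequenced, fewer cells of a type and less RNA per cell cannot be told apart in any of these values.

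**Figure D1:**
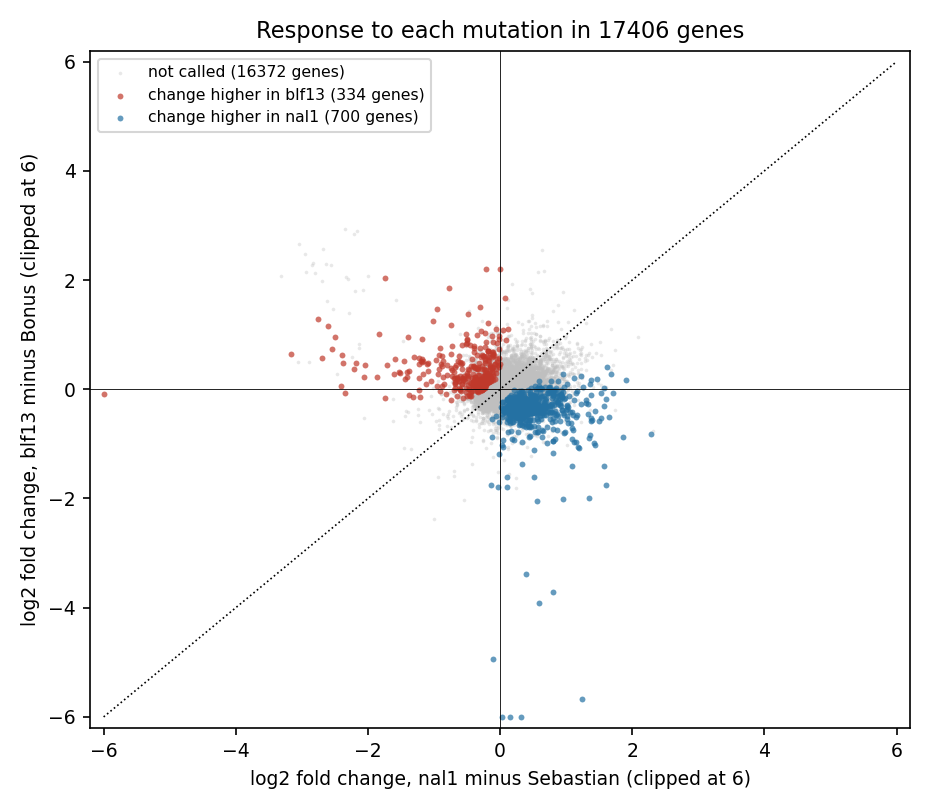
Log2 fold change of nal1 against Sebastian (horizontal) and of blf13 against Bonus (vertical) for the 17406 genes, 1 point per gene, clipped at 6 either way. Red points are the 334 genes with the higher change in blf13, blue points the 700 with the higher change in nal1, grey points those not called, and the dotted line marks equal changes.

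These counts moved when single libraries were left out. The total of 1034 became 497 with blf13 replicate 2 left out, 609 with Bonus replicate 2 left out and 669 with nal1 replicate 3 left out. It became 672 and 473 with Sebastian replicate 2 and 3 left out, in turn. The 334 genes with the higher change in blf13 became 185, 215, 216 and 178 without blf13 replicate 2, nal1 replicate 3, Sebastian replicate 2 and Sebastian replicate 3. The 700 genes with the higher change in nal1 became 312 and 364 when the second replicate of blf13 or of Bonus was left out, 436 and 454 without nal1 replicate 1 and 3, and 456 and 295 without Sebastian replicate 2 and 3. Leaving out the second replicates of blf13 and Bonus together gave 354 genes, 165 and 189 in these directions, and the 283 genes of 2-fold or more became 178. They became 188 without Sebastian replicate 3. Of the 1034 genes, 429 (41.5%) were called in the same direction in each of the 12 fits that left out 1 library. These had a median size of 0.92 on the log2 scale, against 0.60 for the others. No gene of the 1034 turned its direction in any of these 12 fits, which is largely built in, since they were called from the same libraries.

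**Figure D2:**
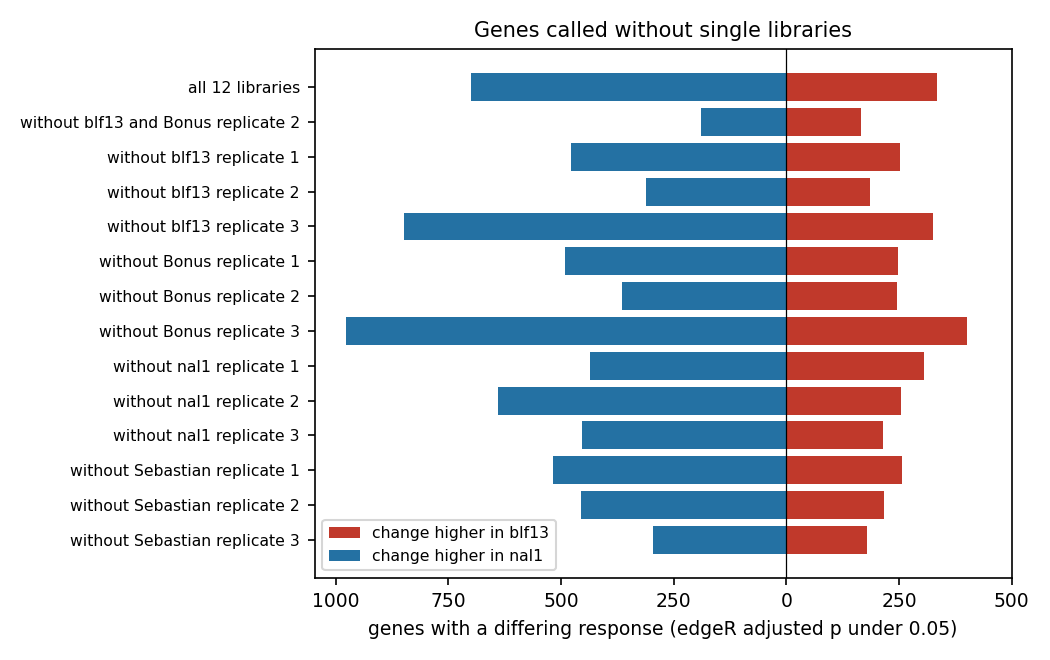
Number of the 17406 genes with a differing response (horizontal), to the right where the change was higher in blf13 and to the left where it was higher in nal1, with all 12 libraries and without single ones. With all libraries the bars reach 334 and 700, and without the second replicates of blf13 and Bonus 165 and 189.

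The genes that moved in opposite directions in the mutants form the plainest class of differing response. In 29 genes the transcript rose in blf13 and fell in nal1, and in 43 genes it fell in blf13 and rose in nal1. All 72 were called in the interaction, and all 72 were also among the 429 genes whose interaction was called in each of the 12 fits that left out 1 library. Genes called in both mutants with the same sign were 79 lower and 15 higher in both, and 1 gene among them, of the 79, was called in the interaction. The median level of the 79 was 281 CPM and that of the 15 was 8.32 CPM. At such levels all genes were shifted down and up, in that order, in both mutants, as given below. The part of this shift in the 79 and 15 was not tested. For the 29 genes, the median level was 11.5 CPM, and the median log2 change was 0.75 in blf13 against −0.88 in nal1. For the 43 genes, it was 24.4 CPM, with median changes of −0.49 and 0.43. The interaction shares its libraries with both mutant contrasts, so these class counts describe the differing genes and test nothing further. Among all 17406 genes, 604 (3.47%) were called in blf13 and 2280 (13.1%) in nal1, against 3.19% and 11.5% of all tested genes. By direction, 1.21% of all tested genes rose and 1.98% fell in blf13, and 6.12% rose and 5.42% fell in nal1. The 604 became 133, 132 and 1295 when blf13 replicate 1, 2 or 3 was left out, and 220, 134 and 1567 when Bonus replicate 1, 2 or 3 was. They became 385 when nal1 replicate 3 was left out, 362 and 385 for Sebastian replicate 2 and 3, and 353 with loess normalization. DESeq2 gave 1272, limma with quality weights 1407 and the fit without the low-count filter 1607. A replicate block gave 402 over all genotypes and 289 within each cultivar. The 2280 became 872 and 911 when nal1 replicate 2 or 3 was left out, and 769 and 581 for Sebastian replicate 2 and 3. They became 4025 with limma and quality weights.

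The membership of both opposite classes depended on which libraries entered the mutant contrasts. The 29 genes became 18 and 12 without blf13 replicate 1 and 2, 15 and 19 without Bonus replicate 1 and 2, 17 without nal1 replicate 3 and, for Sebastian, 19 and 18 without replicate 2 and 3. For the 43 genes the counts were 11, 6 and 105 without blf13 replicate 1, 2 and 3, and 14, 8 and 116 without Bonus replicate 1, 2 and 3. They became 24, 24 and 17 without nal1 replicate 1, 2 and 3, and 27, 17 and 14 without Sebastian replicate 1, 2 and 3. Without the second replicates of blf13 and Bonus the classes held 14 and 3 genes. A replicate block within the Bonus background, where libraries of equal number were correlated, gave 47 and 57 genes, and a block within each cultivar gave 30 and 27. Cyclic loess normalization, in which fold changes are centred at every level of expression, gave 32 and 25. Limma with quality weights gave 49 and 106, DESeq2 40 and 114, and the fit without the low-count filter 83 and 197.

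HORVU.MOREX.r3.3HG0235000, on chromosome 3H, had the largest differing response among the genes that rose in blf13 and fell in nal1. Its level was 0.860, 1.32 and 1.16 CPM in the Bonus replicates and 2.45, 2.61 and 3.18 CPM in the blf13 replicates. In Sebastian it stood at 1.55, 1.58 and 1.503 CPM and in nal1 at 0.268, 0.221 and 0.197 CPM. Every blf13 library lay above every Bonus library, and every nal1 library below every Sebastian library. Such separation was a condition for naming a gene here and below, so it describes the named genes and supports nothing. The log2 fold change was 1.28 (SE 0.19) in blf13 and −2.75 (SE 0.26) in nal1, and the interaction was 4.03 (SE 0.32, edgeR adjusted p = 1.05e-05). In blf13 it did not pass a test against a fold of 1.5 (edgeR adjusted p = 0.071).

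The next in size was HORVU.MOREX.r3.1HG0095330 on 1H, a transcript of higher level. The Bonus libraries held 21.1, 20.8 and 24.8 CPM and the blf13 libraries 85.5, 89.2 and 98.8 CPM, while Sebastian had 17.2, 18.6 and 15.3 CPM and nal1 5.03, 5.24 and 4.92 CPM. The wild types were near each other, and the mutants lay on either side of them at 91.2 ± 6.86 and 5.06 ± 0.16 CPM (SD, n = 3 each). Its call held in the interaction and in both mutants under all 22 alternatives that could change it.

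In the reverse class, HORVU.MOREX.r3.5HG0479840 on 5H was low in blf13. It had 2.48, 2.16 and 2.60 CPM in Bonus and 0.173, 0.181 and 0.105 CPM in blf13, with 15 reads in all 3 blf13 libraries together. Sebastian held 2.50, 2.29 and 2.63 CPM and nal1 3.42, 4.32 and 3.39 CPM, without overlap. The log2 fold changes were −3.92 (SE 0.23) in blf13 and 0.59 (SE 0.16) in nal1, and the interaction was −4.51 (SE 0.28, edgeR adjusted p = 1.16e-06).

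HORVU.MOREX.r3.4HG0413360 on 4H showed the same pattern at a higher level. Bonus libraries ranged widely, at 18.2, 7.89 and 13.6 CPM, and all lay above the 1.26, 0.869 and 0.769 CPM of blf13. In Sebastian there were 22.1, 26.2 and 24.4 CPM and in nal1 28.8, 51.2 and 45.7 CPM. The interaction was −4.51 on the log2 scale (SE 0.42, edgeR adjusted p = 6.00e-05), with −3.71 (SE 0.35) in blf13 and 0.80 (SE 0.23) in nal1. For both HORVU.MOREX.r3.5HG0479840 and HORVU.MOREX.r3.4HG0413360 the fall in blf13 made up most of the difference and held under all 22 alternatives. Their rise in nal1 was near the threshold, with edgeR adjusted p of 0.0297 and 0.0420, and each missed it in 10 of 22 alternatives, for example without nal1 replicate 2 (0.148 and 0.167).

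**Figure D3:**
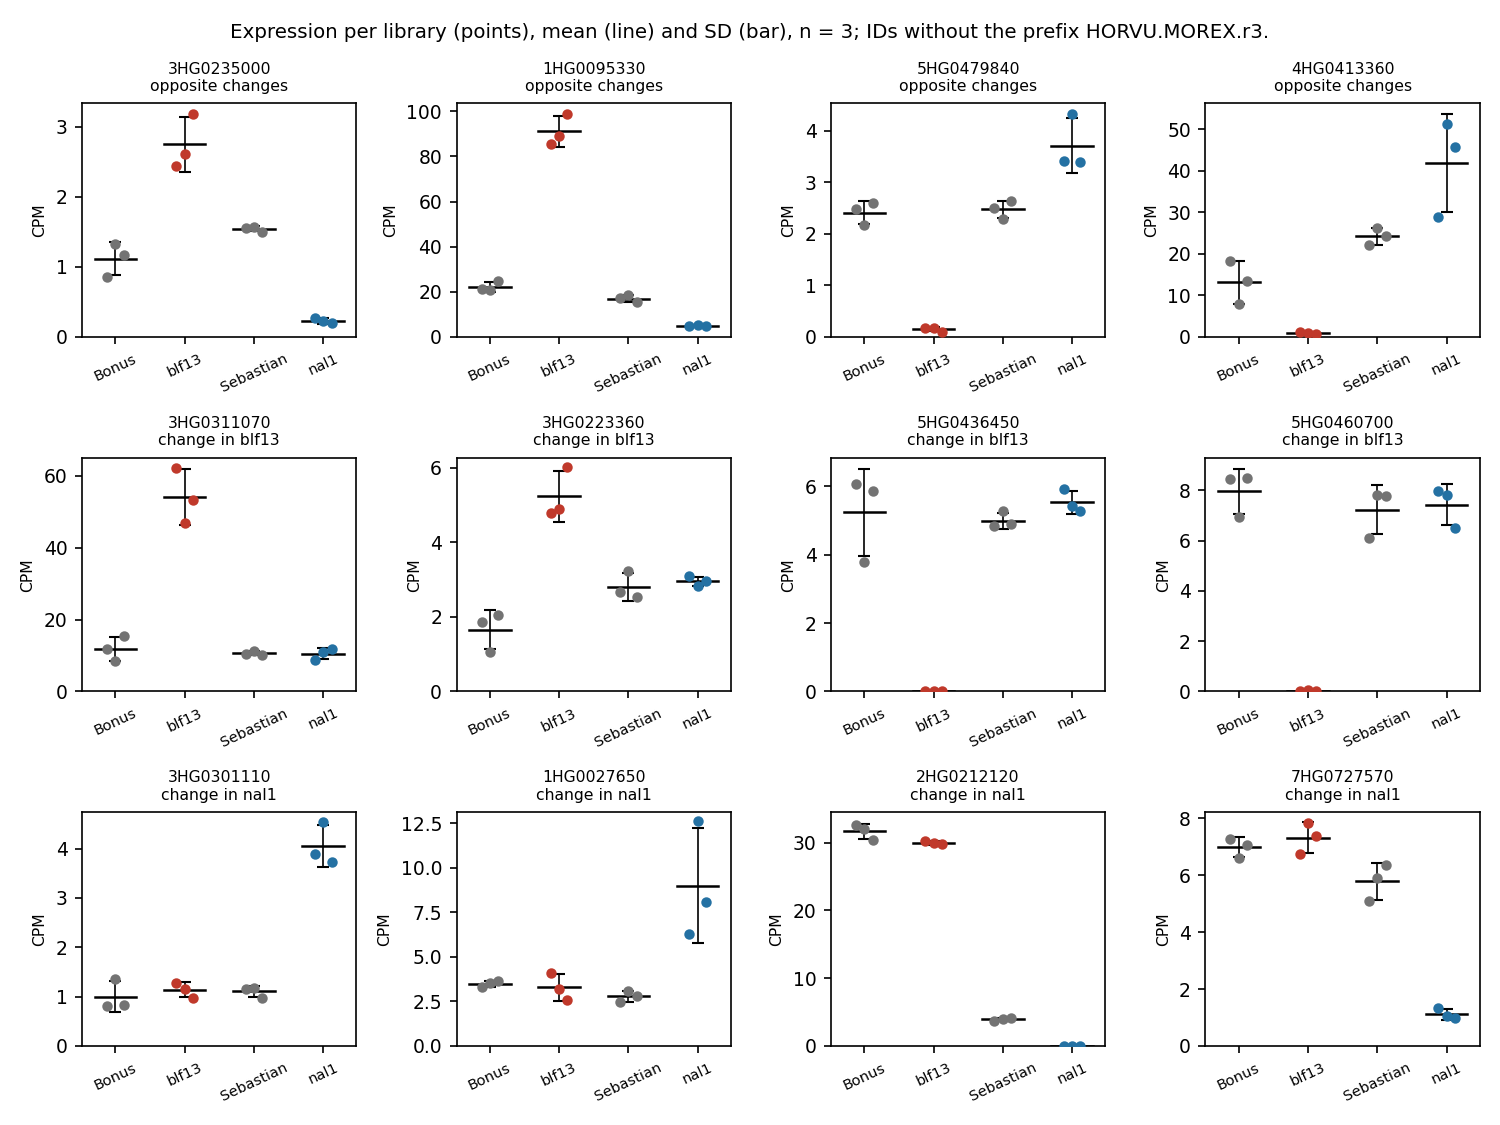
CPM (vertical, each axis from 0) of the 12 named genes in the 3 libraries of each genotype, as points, with the mean as a line and the SD as a bar. The top row holds genes with opposite changes, such as HORVU.MOREX.r3.1HG0095330 at 91.2 CPM in blf13 and 5.06 CPM in nal1, the middle row genes changed in blf13 and the bottom row genes changed in nal1.

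Most of the differing genes were called in 1 mutant, 511 in nal1 alone and 196 in blf13 alone. That order turned to 422 and 436 when blf13 replicate 3 was left out, and it was 535 and 475 when Bonus replicate 3 was. The change was called in nal1 but not in blf13 for 323 genes that rose and 188 that fell in nal1. It was called in blf13 but not in nal1 for 126 genes that fell and 70 that rose in blf13. In the 323 genes the median log2 change was 0.59 in nal1 and −0.25 in blf13, and 153 of them had an unadjusted p under 0.05 in blf13. The 188 genes had medians of −0.49 in nal1 and 0.12 in blf13. For the 126 genes the medians were −0.46 in blf13 and 0.16 in nal1, and for the 70 genes 0.63 and −0.14. A median of the opposite sign in the second mutant is partly built in, since genes with like changes in both do not reach an interaction. Genes called in 1 mutant alone outnumbered those called in both in all 4 directions, but a call that misses the threshold does not show that a gene was unchanged.

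The 4 classes depended unequally on single libraries. The 323 genes that rose in nal1 became 175 without nal1 replicate 3 and, for Sebastian, 186 and 101 without replicate 2 and 3. The 188 that fell in nal1 became 123 without blf13 replicate 2, 121 and 122 without nal1 replicate 2 and 3, and 108 and 96 without Sebastian replicate 2 and 3. The 126 that fell in blf13 became 27, 31 and 336 without blf13 replicate 1, 2 and 3, and 54, 35 and 364 without Bonus replicate 1, 2 and 3. They became 76 without nal1 replicate 3 and, for Sebastian, 70, 79 and 77 without replicate 1, 2 and 3, and a replicate block gave 67 over all genotypes and 54 within each cultivar. The same class held 289 genes with DESeq2, 339 with limma and quality weights, and 342 without the low-count filter. The 70 that rose in blf13 became 40 and 32 without blf13 replicate 1 and 2, 46, 34 and 111 without Bonus replicate 1, 2 and 3, and 40 without Sebastian replicate 3. Limma with quality weights gave 304 in place of the 188 and 108 in place of the 70. Without the low-count filter the 323 became 497 and the 70 became 180. Without the second replicates of blf13 and Bonus the 4 classes held 151, 118, 17 and 24 genes. Of the 429 genes called in each of the 12 fits that left out 1 library, 155 and 91 were of the nal1 classes and 67 and 37 of the blf13 classes, in the order given.

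Among the genes with a call in blf13 and an unadjusted p over 0.2 in nal1, HORVU.MOREX.r3.3HG0311070 on 3H rose most. It had 11.8, 8.44 and 15.3 CPM in Bonus and 62.2, 46.8 and 53.2 CPM in blf13, while Sebastian had 10.5, 11.4 and 10.2 CPM and nal1 8.85, 10.98 and 11.7 CPM. The wild types and nal1 overlapped, and blf13 alone stood above them. The log2 fold change was 2.20 in blf13 (SE 0.17) and −0.0064 in nal1 (SE 0.18), and the interaction was 2.21 (SE 0.24, edgeR adjusted p = 0.000258).

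HORVU.MOREX.r3.3HG0223360, also on 3H, rose from 1.66 ± 0.52 CPM in Bonus to 5.23 ± 0.68 CPM in blf13 (SD, n = 3 each). Sebastian stood at 2.80 ± 0.37 CPM and nal1 at 2.96 ± 0.12 CPM (SD, n = 3 each), with overlapping libraries. Its interaction of 1.59 (SE 0.28, edgeR adjusted p = 0.00684) did not pass against a fold of 1.5 (0.0631).

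The genes that fell most in blf13 alone had 3 reads or fewer there, and both are on 5H. HORVU.MOREX.r3.5HG0436450 had no read in any blf13 library and 349 reads in Bonus, at 6.07, 3.78 and 5.86 CPM. Against a floor of 3 reads summed over the 3 blf13 libraries the level in blf13 was at least 164-fold lower, with the Bonus reads taken as exact. The exact binomial 95% interval, which covers the counting error of both groups, reached down to 133-fold, and this is the safer bound. Sebastian had 4.82, 5.26 and 4.88 CPM and nal1 5.90, 5.42 and 5.26 CPM, at the level of Bonus. HORVU.MOREX.r3.5HG0460700 had 3 reads in blf13 and 539 in Bonus, a ratio of 0.00395 with an exact 95% counting interval of 0.000811 to 0.0116. Its level was 7.96 ± 0.89 CPM in Bonus, 7.23 ± 0.97 in Sebastian and 7.43 ± 0.82 in nal1 (SD, n = 3 each). These intervals cover counting error only. The edgeR adjusted p of the interaction was 1.16e-06 and 6.89e-08 for these genes.

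On the side of nal1, HORVU.MOREX.r3.3HG0301110 on 3H rose from 1.16, 1.18 and 0.970 CPM in Sebastian to 3.89, 4.54 and 3.74 CPM in nal1. Bonus had 0.809, 1.36 and 0.836 CPM and blf13 1.28, 1.16 and 0.979 CPM, so that nal1 alone stood apart. The log2 fold change was 1.90 in nal1 (SE 0.20) and 0.17 in blf13 (SE 0.23), with an interaction of −1.73 (SE 0.30, edgeR adjusted p = 0.00670) that did not pass against a fold of 1.5 (0.0552).

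HORVU.MOREX.r3.1HG0027650 on 1H rose from 2.80 ± 0.31 to 9.01 ± 3.25 CPM in nal1 (SD, n = 3 each), and its nal1 libraries spread over 6.30, 12.6 and 8.11 CPM. Bonus and blf13 stood at 3.48 ± 0.17 and 3.30 ± 0.76 CPM (SD, n = 3 each). The interaction was −1.77 (SE 0.33, edgeR adjusted p = 0.00809), and it missed the threshold against a fold of 1.5 (0.0674) and without the second replicates of blf13 and Bonus (0.0508).

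In the other direction, HORVU.MOREX.r3.2HG0212120 on 2H had 3.66, 3.94 and 4.14 CPM in Sebastian and 0.0671, 0 and 0 CPM in nal1, 1 read in all. The nal1 to Sebastian ratio was 0.00374, with an exact 95% counting interval of 9.46e-05 to 0.0210. The Bonus background held more of this transcript, at 31.7 ± 1.11 CPM in Bonus and 29.95 ± 0.28 CPM in blf13 (SD, n = 3 each), and blf13 was not called (edgeR adjusted p = 0.617). HORVU.MOREX.r3.7HG0727570 on 7H fell from 5.08, 5.91 and 6.37 CPM in Sebastian to 1.34, 1.04 and 0.983 CPM in nal1, and had 6.98 ± 0.35 CPM in Bonus and 7.31 ± 0.54 CPM in blf13 (SD, n = 3 each). Its interaction of 2.47 (SE 0.19, edgeR adjusted p = 6.96e-06) held under all 22 alternatives.

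A further 254 genes were called in the interaction and in neither mutant alone. In 208 of them the change was higher in nal1, with median log2 changes of −0.34 in blf13 and 0.26 in nal1, and in 46 it was higher in blf13, with 0.28 and −0.23. All 254 had changes of opposite sign in the mutants. This is largely built in, since the difference between 2 like changes is smaller than the larger of them. The median level of the 208 went from 44.5 CPM in Bonus to 35.5 in blf13, and from 43.4 CPM in Sebastian to 51.2 in nal1. This class had the least support across libraries, as 6 of its 254 genes were called in each of the 12 fits that left out 1 library. It became 150 and 75 without blf13 replicate 1 and 2, 89 without Bonus replicate 2, 118 without nal1 replicate 1 and, for Sebastian, 155 and 127 without replicate 1 and 3. It became 27 without the second replicates of blf13 and Bonus, and 165 with limma and quality weights.

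Within each class the replicates did not all respond alike. For every gene and library the log2 level was set against the mean of its own wild type, with 0.1 CPM added, and the median over the class was taken. In the 208 genes, blf13 replicates 1, 2 and 3 stood at −0.37, −0.46 and −0.19, Bonus replicate 2 stood at 0.13 and Bonus replicate 3 at −0.097. The nal1 replicates stood at 0.39, 0.14 and 0.23. The smallest blf13 response was thus within 0.1 of the lowest Bonus library. In the 70 genes that rose in blf13 alone the blf13 medians were 0.63, 0.65 and 0.66 and the Bonus medians −0.015 to 0.016. In the 188 genes that fell in nal1 alone the nal1 medians were −0.47, −0.49 and −0.46 and the Sebastian medians −0.013 to 0.013. The second replicate was the highest Bonus library and the lowest blf13 library in each of the 4 classes with the lower change in blf13. The unmapped share was high in blf13 replicate 2, at 29.8%, but not in Bonus replicate 2, at 16% against 17.8% in nal1 replicate 3. The part of mapping in this pattern was not tested.

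**Figure D4:**
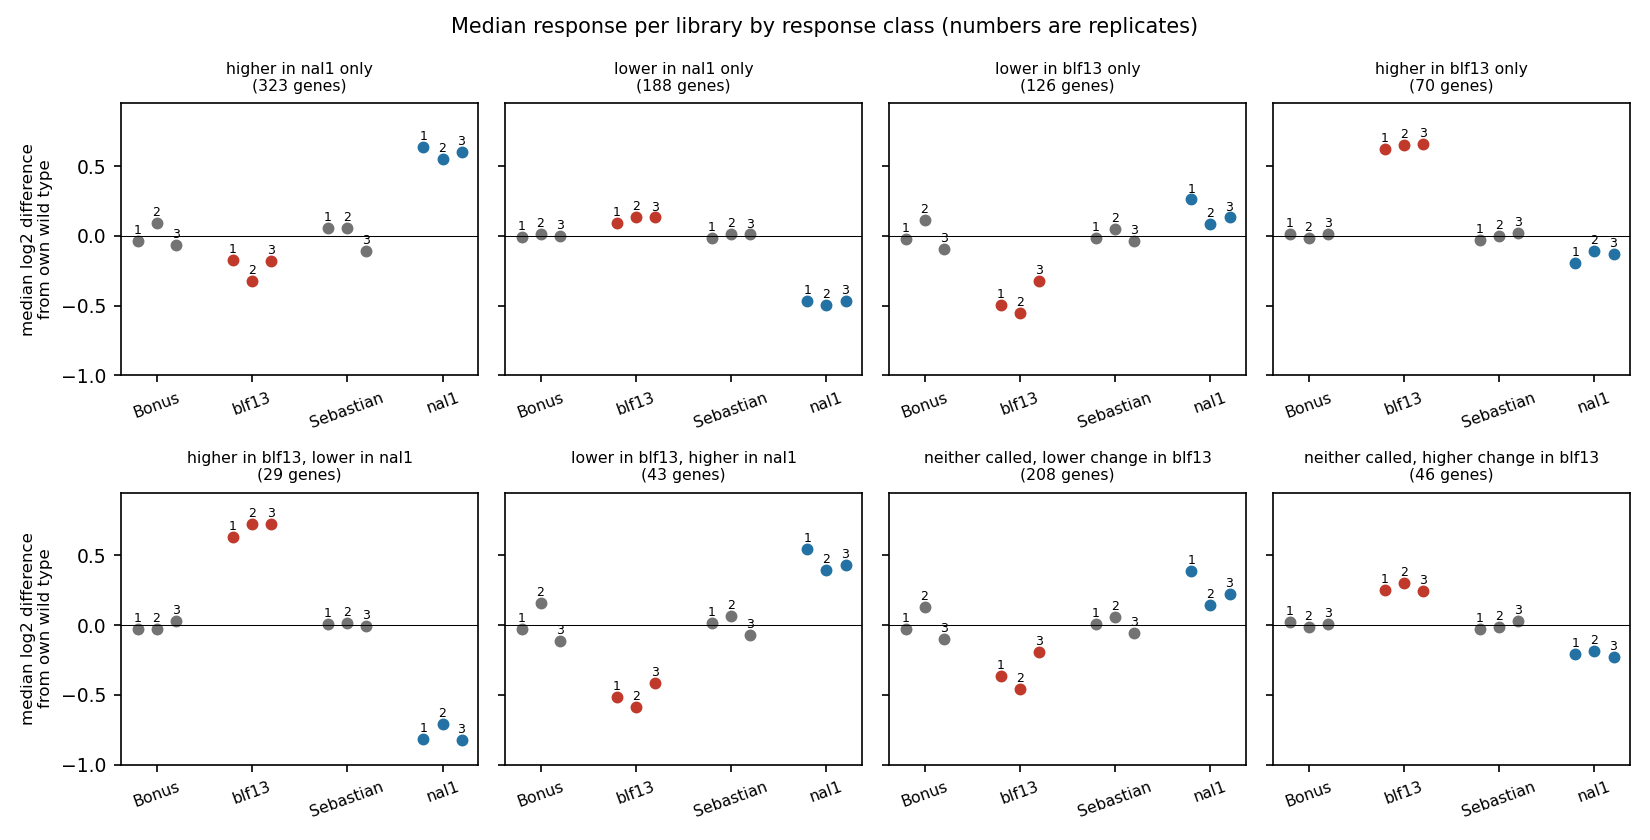
Median over the genes of a class of the log2 difference (vertical) between a library and the mean of its own wild type, for the 12 libraries by genotype, with replicate numbers beside the points. Replicates lie together where the change was higher in blf13, and in the 208 genes called in neither mutant the blf13 medians run from −0.46 to −0.19.

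The wild types were close to each other in the differing genes, and the mutants were apart. The median absolute log2 difference between Bonus and Sebastian was 0.16 among the 1034 genes and 0.13 among all 17406. Between blf13 and nal1 it was 0.75 among the 1034 and 0.19 among all. The mutants were farther apart than the wild types in 925 of the 1034 genes (89.5%), against 63.3% of all 17406. The interaction is made of these differences, so the share describes the called genes. In the others the mutants were as near to each other as their wild types, or nearer.

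Level set how large a difference had to be. Of 6686 genes under 10 CPM, 325 (4.86%) were called, with a median size of 1.09 on the log2 scale. Of 8652 genes at 10 to 100 CPM, 564 (6.52%) were called with a median of 0.62, and of 2068 genes over 100 CPM, 145 (7.01%) with a median of 0.54. The median standard error of the interaction fell from 0.23 to 0.11 and 0.085 over these classes. Of the 283 genes of 2-fold or more, 194 lay under 10 CPM and 11 over 100 CPM. The change was higher in blf13 for 39.1%, 29.4% and 28.3% of the called genes, from low to high level. Both mutants on their own were shifted with level, by a median log2 change of 0.05 and 0.09 under 10 CPM and −0.10 and −0.10 over 100 CPM in blf13 and nal1. In the interaction these shifts largely cancelled, with medians of −0.04, −0.0066 and 0.0083 over the 3 levels.

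How genes called in 1 mutant behaved in the other was read from contrasts that share no library. Under 10 CPM, the log2 change in blf13 was above 0 for 86 of the 127 genes that fell in nal1 (67.7%) and for 318 of the 534 that rose (59.6%), against 58.0% of all 6686 genes. At 10 to 100 CPM it was above 0 for 26.2% of the 618 genes that fell in nal1 and 47.7% of the 514 that rose, against 36.5% of all. Over 100 CPM the shares were 9.93% of 423 and 37.5% of 64, against 19.2% of all 2068. Under this normalization, genes lowered in nal1 thus had shares above those of their level class among weak transcripts and below them among abundant ones. With loess normalization the shares for genes that fell in nal1 were 61.1%, 40.4% and 35.7% from low to high level, against 48.4%, 48.6% and 50.05% of all genes. For genes that rose in nal1 the loess shares were 53.7%, 48.5% and 39.9%, so that over 100 CPM they lay below those of all genes, and above them under TMM. Read the other way, under TMM, 54, 193 and 172 genes fell in blf13, from low to high level, and 102, 75 and 8 rose. For those that fell, the log2 change in nal1 was above 0 in 61.1%, 58.0% and 25.6%, against 62.5%, 42.7% and 25.05% of all genes. For genes that rose in blf13 it was above 0 in 45.1%, 34.7% and 25%. With loess normalization the shares were 55.4%, 66.3% and 39.5% of the genes that fell in blf13 and 31.15%, 32.5% and 35% of those that rose, against 49.4%, 46.6% and 46.1% of all genes. Over 100 CPM, the share for genes that fell in blf13 was thus near that of all genes under TMM and below it under loess. The lists called in blf13 were unstable. Over all levels 185 genes rose and 419 fell under TMM, and 42 and 30 without the second replicates of blf13 and Bonus. The share above 0 in nal1 then went from 40% to 16.7% for genes that rose and from 45.1% to 53.3% for those that fell. It was 48.2% and 47.9% of all genes in these fits. These shares are descriptions without a test. Over all levels 1112 genes rose and 1168 fell in nal1, and with loess normalization 1002 rose and 752 fell. Under TMM their total of 2280 depends on single libraries as given above, and the 1112 and 1168 were not given apart there.

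**Figure D5:**
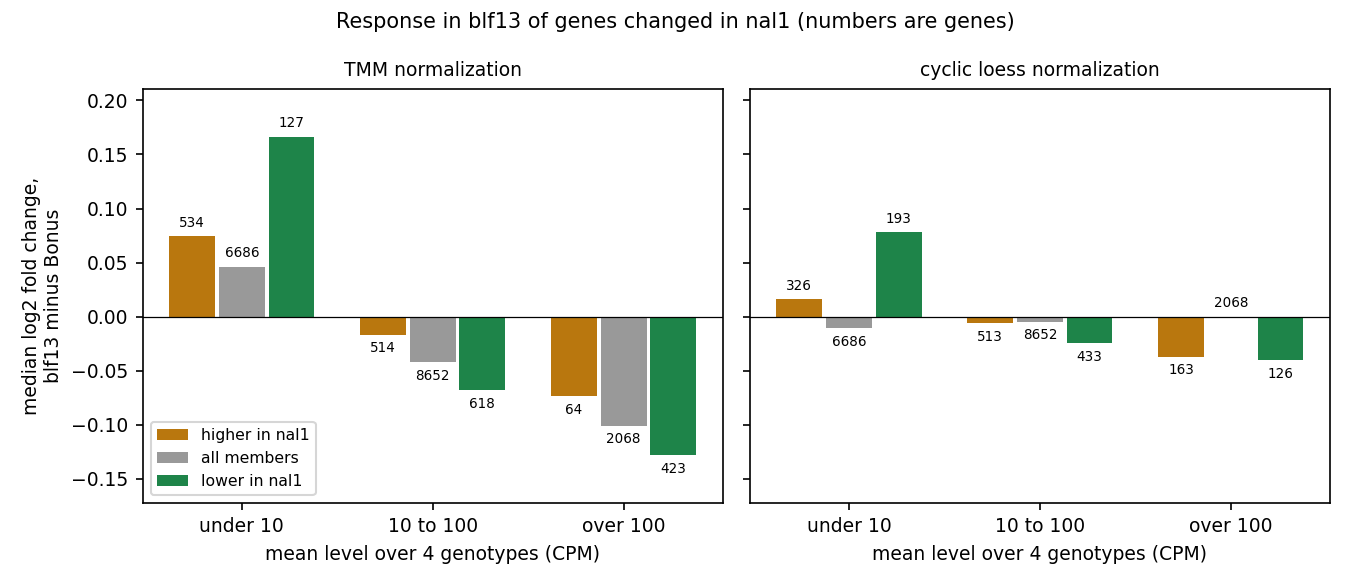
Median log2 fold change of blf13 against Bonus (vertical) for genes that rose in nal1, fell in nal1, and for all genes of the level class (horizontal, mean CPM over the 4 genotypes), with the number of genes at each bar, under TMM and loess normalization. Under 10 CPM the 127 genes that fell in nal1 have the highest median under TMM, at 0.17, and over 100 CPM the 423 that fell have the lowest, at −0.13.

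By chromosome the called share ran from 5.19% of the genes on 7H to 6.43% on 4H. Differences of 4-fold or more were found in 14 of 2764 genes on 5H, 11 of 2563 on 7H, 10 of 2887 on 2H and 8 of 2684 on 3H. There were 5 of 2207 on 1H, 5 of 2088 on 6H and 3 of 2194 on 4H. On 5H, 8 had the lower and 6 the higher change in blf13, near the split of 29 and 27 over all chromosomes. In ID order along a chromosome, the next of the 17406 genes was called in the same direction for 61 of the 1032 called genes that have a next one (5.91%). This share counts 1 direction only, unlike the 5.94% called in either direction. By direction, 1.83% of all tested genes had the higher change in blf13 and 3.39% the higher change in nal1. Grouping along chromosomes was not tested.

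Genes under the level limit in a wild type were set aside by the rule. Of these 5031 tested genes 137 (2.72%) were called, and their median size was 2.40 on the log2 scale with a median standard error of 0.58 over the 5031. Of the 137, 72 were under 1 CPM in both wild types, 41 in Bonus alone and 24 in Sebastian alone. Next to the limit, 4 of the 260 genes just inside and 10 of the 284 just outside were called.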

How the data were processed

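Per the submitters' processing notes, reads were processed with STAR 2.7.3a. The deposited values are raw counts of reads per gene, and the column made without regard to strand was used, since 50.5% to 50.7% of reads fell on the sense strand. Not given in the sources used here are the genome build, trimming and any read filter. The IDs carry the prefix HORVU.MOREX.r3. Reads of overlapping, antisense or near-identical genes cannot be told apart. The 4 summary lines, 15.7% to 37.9% of reads, stayed out of library sizes and tests.

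The quasi-likelihood test of edgeR 4.0.16 (R 4.3.3) was applied after TMM normalization and filterByExpr. Each genotype had 1 coefficient in a fit over all 12 libraries, with Benjamini-Hochberg adjustment over all 22437 tested genes. The level limit was applied to the fitted genes. CPM uses TMM library sizes, and standard errors derive from the F statistic. Alternatives used DESeq2 1.42.0, limma 3.58.1 (voom with quality weights), other normalizations, filters, limits and left-out libraries. The fit was tested on simulated data with interactions planted in 50 genes at each of 4 sizes. It recovered 17 of 50 at 1.5-fold, 35 at 2-fold, 49 at 4-fold and 50 at 8-fold. Of 156 calls there, 5 were false. Changes were planted in blf13 alone, nal1 was left unchanged, and each library was drawn independently, without an outlying library. Far fewer of the 21904 genes tested there were changed than were called in the data. The shares recovered and false thus hold for that setting and are no rates for the data. In that setting differences of 1.5-fold were often missed. Replicates are separate pools, with chi-square per degree of freedom of 3.84 to 10.99 between pairs, so none was a duplicate.

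The labels do not say that equal replicate numbers pair libraries. Deviations from the genotype means correlated across genes by 0.233, 0.259 and 0.227 for equal numbers of blf13 and Bonus, all over 0.1. Unequal numbers of these gave −0.173 to −0.071. For nal1 and Sebastian, equal numbers gave −0.135, −0.042 and 0.085, but nal1 replicate 1 and Sebastian replicate 2 reached 0.199. A value over 0.1 thus also arose without equal numbers, so a pairing of blf13 and Bonus libraries is possible but not settled. The main fit has no block.

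The members, level classes and rules were chosen with earlier results of these data known. Named genes are at most 2 in each direction for opposite changes, for blf13 and for nal1, by largest log2 change among called genes without overlap of mutant and wild type libraries, and with an unadjusted p over 0.2 in the other mutant for the last 2 sets. Other IDs and their sequences were not analysed here, as no names were paired with IDs.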

Additional observations from a re-analysis of the deposited data

Results flagged for a closer look

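Each named gene had a change that differed between blf13 and nal1 by the edgeR interaction test. The interaction on the log2 scale was above 0 for HORVU.MOREX.r3.3HG0235000 (4.03), HORVU.MOREX.r3.1HG0095330 (3.77), HORVU.MOREX.r3.3HG0311070 (2.21), HORVU.MOREX.r3.3HG0223360 (1.59), HORVU.MOREX.r3.2HG0212120 (7.60) and HORVU.MOREX.r3.7HG0727570 (2.47). It was below 0 for HORVU.MOREX.r3.5HG0479840 (−4.51), HORVU.MOREX.r3.4HG0413360 (−4.51), HORVU.MOREX.r3.5HG0436450 (−10.37), HORVU.MOREX.r3.5HG0460700 (−7.84), HORVU.MOREX.r3.3HG0301110 (−1.73) and HORVU.MOREX.r3.1HG0027650 (−1.77). The fitted values of HORVU.MOREX.r3.2HG0212120, HORVU.MOREX.r3.5HG0436450 and HORVU.MOREX.r3.5HG0460700 depend on the prior count, since a mutant had 3 reads or fewer, and are no bounds.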

How the results depend on the processing

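Leaving out 1 library at a time gave 473 to 1378 genes with a differing response, 178 to 400 with the higher change in blf13, 295 to 978 with the higher change in nal1, and 18 to 153 with opposite calls. In the order total, higher change in blf13, higher change in nal1 and opposite calls, the counts were 1811, 626, 1185 and 280 without the low-count filter, 103, 55, 48 and 2 against a fold of 1.5, 308, 128, 180 and 11 at an adjusted p under 0.01, and 354, 165, 189 and 17 without both second libraries of the Bonus background. DESeq2 gave 154 opposite calls, and limma with quality weights 155, with 507 genes of higher change in blf13. The causes were not tested. The total was 859 with a replicate block over all genotypes, 806 within each cultivar and 1148 within the Bonus background alone, and 785, 689 and 951 of the 1034 genes were called in the same direction there. Size factors, loess normalization and the other level limits gave 800 to 1175 genes. None of the 1034 genes reversed its direction in any of these fits. The 12 named genes kept their direction in all 22 alternatives each, and lost calls are given beside them. Both sets were chosen by calls in the libraries that these fits reuse, so a kept direction is largely built in and is no support. Depth limits genes under 10 CPM, where the median standard error was 0.23.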

Other observations

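The largest fitted differences included 25 genes that were not called. Their interaction was 3.22 to 5.70 on the log2 scale, with the higher change in blf13, and their edgeR adjusted p was 0.142 to 0.320. In all 25, blf13 replicate 2 was the highest of the 12 libraries and Bonus replicate 2 the highest Bonus library. The level of blf13 replicate 2 was 9.41 to 59.4 times that of the higher of the other blf13 libraries, with a median of 30.6 times. Summed over the 25 genes there were 888 CPM in blf13 replicate 2, against 15.3 and 28.0 CPM in blf13 replicates 1 and 3. The Bonus replicates held 24.9, 148 and 15.2 CPM, the Sebastian replicates 91.7, 51.2 and 77.8 CPM, and the nal1 replicates 15.6, 11.4 and 13.6 CPM. The groups of the Bonus background overlapped, and all 3 Sebastian libraries lay above all 3 nal1 libraries. By ID, 7 of the genes are on 1H, 6 on 2H, 3 each on 4H and 5H, 2 on 7H and 4 on no chromosome, and 24 of the 25 lie within 10 ranks of another of them. The same library had the highest unmapped and multimapping shares, 29.8% and 4.01%, whose part in these values was not tested. The set was chosen after its values were seen.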
